A study of Rattus norvegicus with 12 samples.

Results

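Myofibroblast contractile genes are the actin, actin-binding, tropomyosin and myosin light chain genes that fibroblasts share with smooth muscle once they build contractile stress fibres. The 10 genes described here are taken from the tables by their symbols: Acta2, Tagln, Cnn1, Myl9, Tpm1, Tpm2, Cald1, Actg2, Smtn and Lmod1. They match 11 of the 20400 genes listed in either of 2 deposited tables, because Smtn stands under 2 gene IDs. All 11 entries were present in both tables and passed the filter on low values, a mean of at least 1 normalised count. The deposited values are normalised read counts from RNA sequencing, that is, reads divided by a size factor for each library. RNA was measured in 12 rat libraries in 4 groups of 3.

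All cells were labelled as WT bone marrow cells and were kept in low-glucose medium with a chondrogenic induction medium. BMSC-C was untreated bone marrow mesenchymal stem cells (BMSCs). BMSC-CT was BMSCs given CTGF (connective tissue growth factor) over 1 week, with TGF-β1 following, a pair of signals used to drive fibrous matrix formation. BF-C was labelled fibrotic BMSCs without treatment, and BF-D was the same cells with docetaxel, a drug that stabilises microtubules. The series design names these BF cells induced fibrotic chondrocytes, and it uses the name fibrotic BMSCs for the CTGF and TGF-β1 group. The labels state neither the strain of the animals, nor how the BF cells were made, nor the dose of any agent and the time in docetaxel. Whether the replicates are separate cultures is not stated, so a p-value measures only the spread between these libraries, which may be technical.

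Contraction in these cells rests on filaments of actin pulled by myosin, whose regulatory light chain switches the motor on when phosphorylated. Tropomyosins lie along the actin filament, while calponin, caldesmon, smoothelin and transgelin bind to it, and leiomodin starts new filaments. Transcription of most of these genes is known to depend on serum response factor (SRF) and its myocardin-family cofactors, which act through the CArG box. In fibroblasts, TGF-β is a textbook inducer of Acta2, and α-smooth muscle actin, its product, is the standard marker of a myofibroblast.

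The promoters of the members differ in the motifs they hold. Of the 10 members, 7 had an entry among the RefSeq promoters (build GRCr8), with 8 start sites in all (not Tagln, Myl9 and Lmod1). The 250 bases before each start were searched on both strands for the CArG box, which is 10 bases long, and for GGAATG, the core bound by TEAD factors. An exact CArG box was present in 1.50% of the 33469 windows of all genes and in 0 windows of the members. A CArG box with at most 1 mismatch was present in 18.7% of all windows and in 4 of the 8 windows of the members. These belonged to Acta2, Tpm1, Cald1 and Smtn, with Cald1 holding it at only 1 of its start sites. GGAATG was present in 12.1% of all windows and in 3 of the 8 windows of the members (Acta2, Tpm1 and the same Cald1 window). A match is only a run of letters in a window and says nothing of a factor being bound.

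4 windows are printed: that of Acta2 as the defining gene, that of Cnn1, which fell most in the BMSC comparison, and those of Tpm1 and Tpm2, a pair of tropomyosins that parted in it. Each reads 5′ to 3′ on the gene's own strand and ends 1 base before the start; capitals mark a GGAATG or a near-CArG motif (1 mismatch).
Acta2, chr1:241172504-241172753, minus strand: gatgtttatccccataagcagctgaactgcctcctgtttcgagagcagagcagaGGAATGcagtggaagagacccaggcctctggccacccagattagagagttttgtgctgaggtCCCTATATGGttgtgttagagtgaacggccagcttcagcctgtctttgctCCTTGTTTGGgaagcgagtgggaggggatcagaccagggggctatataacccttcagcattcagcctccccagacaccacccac
Cnn1, chr8:28908187-28908436, plus strand: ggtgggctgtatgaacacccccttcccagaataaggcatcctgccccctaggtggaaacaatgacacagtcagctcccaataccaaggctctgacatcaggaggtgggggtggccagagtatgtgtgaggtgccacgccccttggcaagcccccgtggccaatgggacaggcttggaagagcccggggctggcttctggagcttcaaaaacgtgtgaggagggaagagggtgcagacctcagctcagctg
Tpm1, chr8:76543416-76543665, minus strand: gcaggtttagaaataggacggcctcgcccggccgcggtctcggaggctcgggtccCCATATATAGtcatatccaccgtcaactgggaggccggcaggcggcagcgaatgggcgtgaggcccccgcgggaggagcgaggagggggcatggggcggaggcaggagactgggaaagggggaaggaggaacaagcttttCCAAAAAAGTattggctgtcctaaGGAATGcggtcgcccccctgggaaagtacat
Tpm2, chr5:62575727-62575976, minus strand: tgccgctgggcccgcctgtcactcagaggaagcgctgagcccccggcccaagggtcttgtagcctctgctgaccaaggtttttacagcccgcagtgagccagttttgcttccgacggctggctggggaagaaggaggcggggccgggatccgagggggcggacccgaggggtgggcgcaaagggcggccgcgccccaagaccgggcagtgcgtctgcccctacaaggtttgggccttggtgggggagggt
In the Acta2 window the near-CArG matches CCCTATATGG and CCTTGTTTGG begin at positions -134 and -84 from the start, and GGAATG begins at -196, with no overlap. In the Tpm1 window the matches CCATATATAG and CCAAAAAAGT begin at positions -195 and -55, and GGAATG begins at -31, again with no overlap. The Cnn1 and Tpm2 windows hold neither motif.

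The reads recovered from the deposited values of the listed genes came to 15580310 to 19870047 per library. The full sequencing depth is not known from them. In each treated group 1 library stood apart. Over the genes tested, the log2 values of BMSC-CT replicate 3 correlated at 0.878 and 0.895 with the other BMSC-CT libraries, which correlated at 0.977 with each other. It had reads for 14621 genes against 16100 and 16443, and 15.5% of its reads lay in ribosomal protein genes against 5.40% and 6.65%. In BF-D replicate 2 that share was 2.89%, against 1.85% and 1.71% in the other BF-D libraries. Both libraries also differed from their partners by gene length. Among genes of above-median mean count and 1000 to 1600 bases, the median log2 difference from the other libraries of the group was 0.99 for the BMSC-CT library and 0.40 for the BF-D library. Among genes of 3000 to 4600 bases it was -0.44 and -0.16. Results without them are given beside the members and, as counts, beside each gene list. The part of RNA quality in the results was not tested.

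Levels of the members are compared between genes, and between the separately normalised tables, as reads per kilobase of deposited gene length per 1000000 reads (RPKM), without a test. In BMSC-C the order ran from Tpm2 at 338 ± 14.5 RPKM (SD, n = 3), through Tagln at 160 ± 25.9, Cald1 at 136 ± 42.3 and Tpm1 at 111 ± 12.05, to Myl9 at 46.1 ± 3.83 and Acta2 at 21.6 ± 6.42. The ranges of Tagln and Cald1 overlapped, as did those of Cald1 and Tpm1. Below Acta2 stood the 3307-base Smtn entry at 9.31 ± 0.53 RPKM, Cnn1 at 5.13 ± 0.68, the 648-base Smtn entry at 1.55 ± 0.93, Actg2 at 0.42 ± 0.12 and Lmod1 at 0.28 ± 0.03, the last 2 with overlapping ranges. Acta2 was thus not a leading gene of the group in these cells.

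In BMSC-CT, Tpm2 still led at 304 ± 174 RPKM (SD, n = 3), with 505 in replicate 3 and 208 and 198 in the others. Tagln followed at 27.6 ± 4.43 RPKM, then Myl9 at 17.1 ± 4.92, Tpm1 at 15.8 ± 3.73, Cald1 at 13.8 ± 7.23 and Acta2 at 8.74 ± 1.18. From Myl9 to Acta2 the range of each gene overlapped that of the next. The long Smtn entry stood at 6.18 ± 0.20 RPKM, and Actg2, Lmod1, the short Smtn entry and Cnn1 had mean levels of 0.68, 0.19, 0.12 and 0.0804 RPKM. In RPKM, 9 of the 11 entries had all BMSC-CT libraries below all BMSC-C libraries (36.9% of all genes) and 0 had them above (15.3%).

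In BF-C the order was different. Tagln led at 627 ± 24.6 RPKM (SD, n = 3) and Tpm2 followed at 432 ± 26.1. Acta2 came next at 306 ± 22.3 RPKM, with a range that overlapped that of Cald1 at 274 ± 6.10. Myl9 stood at 217 ± 6.67 RPKM, Tpm1 at 164 ± 5.29, the long Smtn entry at 42.3 ± 0.89 and Cnn1 at 22.3 ± 1.86, each apart from its neighbours. Actg2 at 4.98 ± 0.72 RPKM and Lmod1 at 2.95 ± 0.38 stayed low in the group. The RPKM level of Acta2 was 14.2 times that of BMSC-C, that of Actg2 11.98 times and that of Lmod1 10.4 times, while that of Tpm1 was 1.48 times and that of Tpm2 1.28 times. The short Smtn entry was the exception to the higher levels, at 0.77 times. These ratios cross 2 tables and were not tested. In BF-D the order was the same but for Cald1 and Myl9, whose ranges overlapped, at 260 ± 26.7 and 287 ± 75.3 RPKM (SD, n = 3). There Tagln stood at 863 ± 264 RPKM, Tpm2 at 529 ± 202 and Acta2 at 452 ± 162, with overlapping ranges that BF-D replicate 2 widened.

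**Figure D1:**
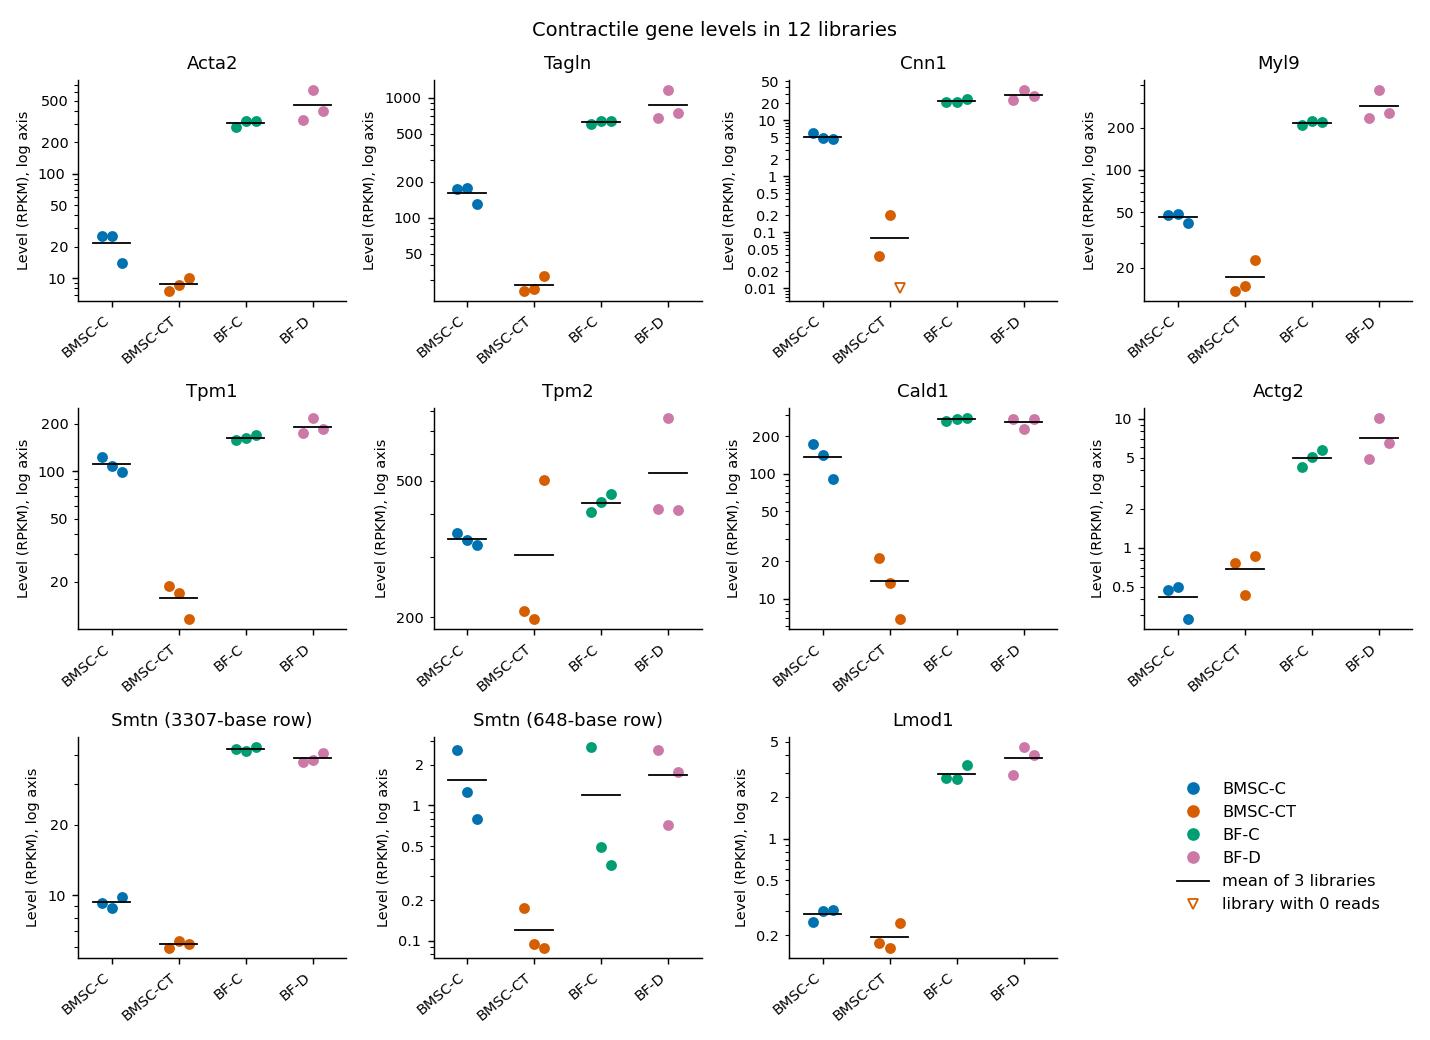
Level of each contractile gene in every library, as RPKM on a log axis, for the 4 groups of 3 libraries; dots are libraries, black lines are means of 3, and an open triangle marks a library with 0 reads. Acta2 lies at 14.1 to 25.3 RPKM in BMSC-C, 7.64 to 9.98 in BMSC-CT and 280 to 635 in the BF groups.

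Marker transcripts of cell types differed along with these levels. The summed RPKM of 12 macrophage markers (among them Cd68, Csf1r and Lyz2) ran from 5064 to 6116 in BMSC-C and from 8840 to 10264 in BMSC-CT, but from 21.8 to 35.9 over both BF groups, where C1qa and C1qb had no reads. Most of the sum in the BMSC groups was Lyz2, with mean levels of 3416 RPKM in BMSC-C and 6809 in BMSC-CT. Of the 12 markers 6 had a lower value in BMSC-CT, among them Adgre1, with mean levels of 962 and 295 RPKM, and Cd14, with 69.2 and 28.2. The summed RPKM of 9 mesenchymal markers (among them Thy1, Pdgfra and Cxcl12) was 1039 to 1129 in BMSC-C, 304 to 588 in BMSC-CT, 1791 to 1827 in BF-C and 1721 to 1871 in BF-D. These markers did not all differ alike. Between BMSC-C and BF-C the mean level of Thy1 was 492 and 1023 RPKM, and that of Cxcl12 43.5 and 323. Eng, Pdgfrb, Lepr and Vcam1 were also higher in BF-C. Cd44 was lower there, at 243 and 103 RPKM, as was Nt5e at 22.9 and 4.70, and Pdgfra stood at 155 and 154. The libraries labelled BMSC therefore held both sets of transcripts. In bulk RNA, fewer cells of a type and less RNA per cell cannot be told apart. Of 8 hyaline cartilage markers the summed level was at most 2.42 RPKM in any library, with Col2a1 absent from the BMSC table and Acan from the BF table. Skeletal muscle markers summed to at most 19.8 RPKM in any library, and of 6 endothelial markers the sum was at most 22.3 RPKM.

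The comparison of BMSC-CT with BMSC-C asks what CTGF and TGF-β1 do to these cells. Every contractile gene that passed the test was lower after treatment. Of the 11 entries, 5 fell and 0 rose at an adjusted p under 0.05 (limma, adjusted over all genes): Tpm1, Cald1, Cnn1, Tagln and the short Smtn entry. Over all genes tested 18.6% were called, 10.9% as falls and 7.7% as rises. Rises made up 41.3% of these calls, but 28.6% with total-read scaling and 51.8% with quantile scaling. The log2 fold change was positive for 2 entries (45.6% of all genes), and 6 had an unadjusted p under 0.05 (38.6% of all genes). The median log2 fold change was -1.04 over the members and -0.15 over all genes. All 3 treated libraries lay below all controls for 6 entries (28.9% of all genes) and above them for 1 (23.3% of all genes). Without BMSC-CT replicate 3, 8 entries fell and 0 rose, where 43% of all genes were called and 23.5% fell.

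Of the actins, Acta2 (ENSRNOG00000058039) encodes the α-smooth muscle actin of stress fibres. Its normalised counts were 511, 508 and 300 in BMSC-C and 170, 207 and 386 in BMSC-CT. The groups overlapped, because BMSC-CT replicate 3 lay above BMSC-C replicate 3. The log2 fold change was -0.84 (SE 0.39, limma adjusted p = 0.164), so that Acta2 missed the threshold with all libraries. Without BMSC-CT replicate 3 it fell by 1.18 on the log2 scale (adjusted p = 0.0075). Scaling matters here, since a read in that library was worth 1.61 normalised counts, against 0.813 to 1.06 in the other BMSC libraries. In RPKM the Acta2 groups did not overlap, at 25.2, 25.3 and 14.1 in BMSC-C and 7.64, 8.61 and 9.98 in BMSC-CT. With libraries scaled to total reads, which lowers the median of all genes to -0.53, Acta2 fell by 1.26 (limma adjusted p = 0.0448).

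Actg2 (ENSRNOG00000029401) encodes the γ-actin of enteric smooth muscle and was near the floor in these cells. Its normalised counts were 9.76, 10.2 and 6.07 in BMSC-C and 17.2, 10.6 and 33.8 in BMSC-CT. Every treated library lay above the controls, but the log2 fold change of 1.04 did not pass (SE 0.55, limma adjusted p = 0.202), and only 31 control and 50 treated reads stand behind it. In RPKM the groups overlapped. Acta2 and Actg2 are near-identical in their coding sequence, and how reads matching both were assigned is not given in the sources used here.

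The tropomyosins Tpm1 (ENSRNOG00000018184) and Tpm2 (ENSRNOG00000016731), which form the strands along stress fibre actin, parted in the treated libraries. Tpm1 had normalised counts of 5614, 4895 and 4737 in BMSC-C and 934, 915 and 1005 in BMSC-CT. The treated libraries lay close together and far below every control. Tpm1 fell by 2.41 on the log2 scale (SE 0.18, limma adjusted p = 0.000810), that is 5.33-fold, and this was the smallest adjusted p of the 11 entries. Tpm2 had 7668, 7205 and 7369 normalised counts in BMSC-C and 4963, 5088 and 20935 in BMSC-CT. Of its treated libraries, 2 lay below every control and replicate 3 lay far above, so the log2 fold change of 0.13 did not pass (SE 0.56, limma adjusted p = 0.878), and it was -0.30 with total-read and -0.38 with quantile scaling. Without replicate 3 Tpm2 fell by 0.56 (adjusted p = 0.0092), where Tpm1 fell by 2.45. The library's excess of Tpm2 was 4.17-fold over the other BMSC-CT libraries, larger than for 93.6% of genes.

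The ratio of the Tpm1 to the Tpm2 level within a library is not moved by a single scaling factor per library, though the genes differ in length (3116 and 1490 bases). It was 0.350, 0.325 and 0.307 in BMSC-C and 0.0900, 0.0860 and 0.0230 in BMSC-CT. The groups stood apart with or without replicate 3.

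Of the genes for other proteins that sit on actin filaments, Cnn1, Cald1, Tagln and the short Smtn entry fell. Cnn1 (ENSRNOG00000027736) encodes calponin 1, which inhibits actomyosin. Its normalised counts were 129, 104 and 107 in BMSC-C and 0.904, 5.28 and 0 in BMSC-CT, which are 159, 123 and 123 reads against 1, 5 and 0. Cnn1 reads were all but absent from the treated libraries. Its log2 fold change was -5.64 (SE 0.71, limma adjusted p = 0.0044). The size depends on the number added before taking logs, at -7.11 with 0.1 added and -3.37 with 10 added, with Cnn1 called in both. As a share of all reads, the control level was 66.0 times the treated one.

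Cald1 (ENSRNOG00000010233) encodes caldesmon, which blocks myosin from actin until it is released. Its normalised counts were 11364, 9212 and 6180 in BMSC-C and 1521, 1033 and 850 in BMSC-CT. Even the highest treated library lay below the lowest control. Cald1 fell by 2.97 on the log2 scale (SE 0.32, limma adjusted p = 0.0026), a 7.85-fold drop. It was the member with the most reads in BMSC-C, 31999 over the 3 libraries, against 3189 in BMSC-CT.

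Tagln (ENSRNOG00000017628) encodes transgelin (SM22α), an early marker of the smooth muscle programme. It had 3150, 3200 and 2484 normalised counts in BMSC-C and 495, 552 and 1142 in BMSC-CT. The groups did not overlap, with replicate 3 the highest of the treated libraries. Tagln fell by 2.11 on the log2 scale (SE 0.35, limma adjusted p = 0.0112). The call was lost without BMSC-C replicate 1 (limma adjusted p = 0.0682), BMSC-C replicate 2 (0.0679) or BMSC-CT replicate 2 (0.0504). In those fits 736 to 1235 of all genes were called, against 3134 with all 6 libraries. Without BMSC-CT replicate 3 Tagln fell by 2.48 (limma adjusted p = 1.35e-05).

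Smtn encodes smoothelin, a protein of contractile smooth muscle. The short entry (ENSRNOG00000054319, 648 bases) rests on few reads. It had 24.4, 11.8 and 7.80 normalised counts in BMSC-C and 1.81, 1.06 and 1.61 in BMSC-CT. Each treated library held 1 or 2 reads, below every control. The log2 fold change was -2.52 (SE 0.54, limma adjusted p = 0.0253), and the call was lost when BMSC-C replicate 1 or 2 or BMSC-CT replicate 2 was left out (limma adjusted p = 0.0951, 0.103 and 0.0840) and with quantile scaling (0.0600). The long entry (ENSRNOG00000019451, 3307 bases) carried 447, 420 and 497 normalised counts in BMSC-C and 316, 364 and 570 in BMSC-CT. Its groups overlapped, and the log2 fold change of -0.17 did not pass (SE 0.28, limma adjusted p = 0.664). Nothing in the tables tells how reads were divided between the 2 Smtn IDs.

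Myl9 (ENSRNOG00000020246) encodes the regulatory myosin light chain that myosin light chain kinase acts on. Its normalised counts were 772, 775 and 702 in BMSC-C and 243, 284 and 701 in BMSC-CT. The groups did not overlap, but replicate 3 lay only just below the lowest control. The log2 fold change was -1.04 (SE 0.41, limma adjusted p = 0.117). Without that library Myl9 fell by 1.51 (adjusted p = 0.00016), and with total-read scaling it fell by 1.46 (adjusted p = 0.0189).

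Lmod1 (ENSRNOG00000051548) encodes leiomodin 1, the filament nucleator of smooth muscle. With 16.3, 19.5 and 20.8 normalised counts in BMSC-C and 12.7, 12.7 and 30.6 in BMSC-CT, it was low throughout, and its groups overlapped. The log2 fold change was -0.13 (SE 0.48, limma adjusted p = 0.856). Without BMSC-CT replicate 3 it was -0.53, and those of Actg2 and the long Smtn entry were 0.61 and -0.42, none of them called. Cnn1, Cald1 and the short Smtn entry stayed called without that library, at -5.04, -2.79 and -2.56.

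**Figure D2:**
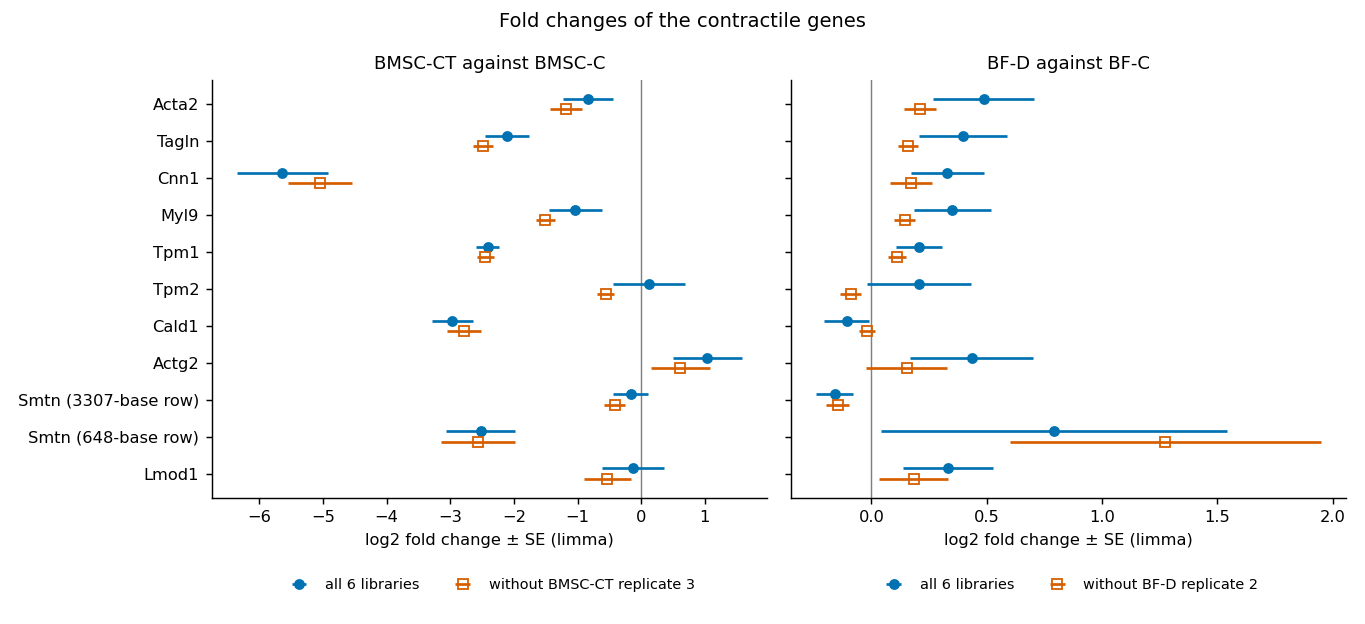
Log2 fold change with its standard error (limma) for each contractile gene in BMSC-CT against BMSC-C (left) and BF-D against BF-C (right), from all 6 libraries (filled circles) and without the library that stood apart (open squares); the panels have different scales. In the left panel Cnn1 lies at -5.64 and Tpm2 moves from 0.13 to -0.56 when BMSC-CT replicate 3 is left out. In the right panel Acta2 moves from 0.49 to 0.21 without BF-D replicate 2.

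Several members were higher in the library that stood apart than in both its partners. This held in BMSC-CT replicate 3 for 8 of 11 entries (42.5% of all genes), and for 8 of 11 (39.9% of all genes) where BF-D replicate 2 was set against its partners. Short genes in general leaned the same way. Among genes of above-median mean count and 1000 to 1600 bases, 82.1% and 84.1% had a log2 difference above 0 in these libraries. That measure is looser than being above both partners. Among such genes of 3000 to 4600 bases the shares were 27.1% and 25.7%. Acta2, Tagln, Myl9, Tpm2 and Actg2, all of 1104 to 1490 bases, exceeded the other libraries by 1.04 to 2.06 on the log2 scale in BMSC-CT replicate 3. In BF-D replicate 2 those genes exceeded the other libraries by 0.62 to 0.89. The long members did not share a direction. Cald1, of 4465 bases, lay at -0.56 and -0.26 from its partners in the 2 libraries, but Lmod1, of 4501 bases, lay at 1.21 and 0.45. The 3307-base Smtn entry lay at 0.75 and -0.04, and Tpm1, of 3116 bases, at 0.12 and 0.28. Cnn1, of 1500 bases, went the other way in BMSC-CT replicate 3, where it had no reads. The shortest entry, Smtn of 648 bases, rests on few reads and lay at 0.12 and -1.45 from its partners in the 2 libraries.

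**Figure D3:**
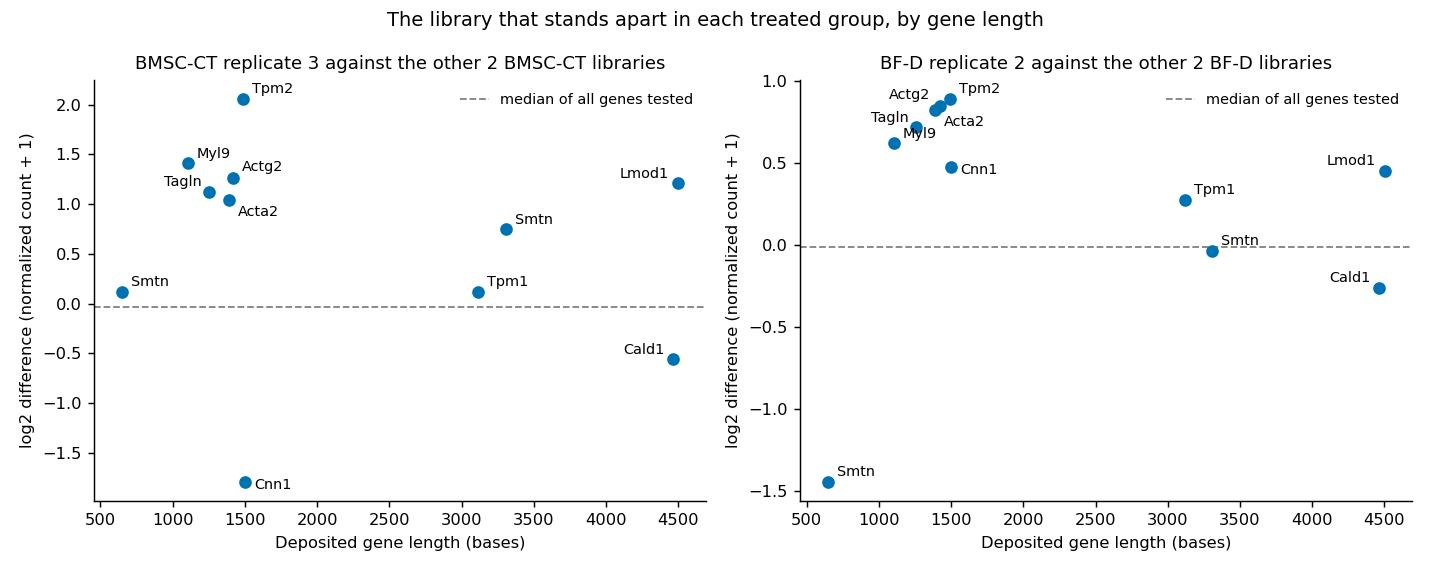
Log2 difference between the library that stood apart and the mean of the other 2 libraries of its group, for each contractile gene, against the deposited gene length in bases; the dashed line is the median of all genes tested. Members of 1104 to 1490 bases lie between 1.04 and 2.06 in BMSC-CT replicate 3 (left) and between 0.62 and 0.89 in BF-D replicate 2 (right), while of the long members Cald1 lies at -0.56 and -0.26 and Lmod1 at 1.21 and 0.45.

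The comparison of BF-D with BF-C asks what docetaxel does to the fibrotic cells. Of the 11 entries, 0 were called by limma, and 0 had an unadjusted p under 0.05; over all genes 0.0117% were called (0.00586% as rises and 0.00586% as falls) and 6.2% had an unadjusted p under 0.05. edgeR and DESeq2 on the recovered reads also called 0 entries, each with 2 at an unadjusted p under 0.05, and limma-voom called 0 with 0. Over all genes, edgeR called 2 of 17076, DESeq2 72 of 14733 and limma-voom 0 of 17076. Their counts of all genes at an unadjusted p under 0.05 were 1048, 866 and 1082. The authors' deposited table gives 0 entries with an adjusted p under 0.05 and 3 with an unadjusted p under 0.05. The share of all genes was not counted for the authors' p-values. The median log2 fold change was 0.33 over the members and -0.00 over all genes, and 9 entries had a positive value (49.3% of all genes). Without BF-D replicate 2 the median of the members was 0.15, with 8 positive values. All docetaxel libraries lay above all controls for 4 entries (7.78% of all genes), namely Acta2, Tagln, Myl9 and Tpm1, and below them for 1, the long Smtn entry (9.04% of all genes).

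Acta2 had 6557, 7456 and 7391 normalised counts in BF-C and 7546, 14615 and 9015 in BF-D. The lowest docetaxel library lay just above the highest control, and replicate 2 was 1.77-fold above the other BF-D libraries. The log2 fold change was 0.49 (SE 0.22, limma adjusted p = 0.706). Without replicate 2 it was 0.21 (SE 0.07, adjusted p = 0.221).

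Tagln had 12632, 13487 and 13433 normalised counts in BF-C and 14101, 24182 and 15331 in BF-D. The pattern was that of Acta2, with replicate 2 far above the rest. Its log2 fold change was 0.40 (SE 0.19, limma adjusted p = 0.706), and 0.16 without replicate 2 (SE 0.04, adjusted p = 0.130). Myl9 had 3891, 4133 and 4010 against 4271, 6810 and 4602 normalised counts, and a log2 fold change of 0.35 (SE 0.17, limma adjusted p = 0.706). Tpm1 had 8326, 8556 and 8794 against 9051, 11206 and 9463, and a log2 fold change of 0.21 (SE 0.10, limma adjusted p = 0.706). In each of these genes the docetaxel libraries sat above the controls, with replicate 2 the highest. Without that library the log2 fold changes of Myl9 and Tpm1 were 0.14 and 0.11.

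Tpm2 had 10175, 10841 and 11377 normalised counts in BF-C and 10210, 18787 and 10063 in BF-D, so that replicate 2 alone lay above the controls. Its log2 fold change of 0.21 (SE 0.23, limma adjusted p = 0.767) became -0.09 without that library. Cald1 had 20138, 20670 and 20849 against 20420, 16920 and 20143 normalised counts, and here replicate 2 was the low one. Its log2 fold change was -0.11 (SE 0.10, limma adjusted p = 0.732), and -0.02 without that library. The long Smtn entry had 2348, 2305 and 2382 against 2034, 2064 and 2206 normalised counts, lower in every docetaxel library, with a log2 fold change of -0.16 (SE 0.08, limma adjusted p = 0.706). Its direction did not rest on replicate 2, since the value without it was -0.15.

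The scarcer members overlapped between the BF groups. Cnn1 had 547, 526 and 611 against 582, 877 and 684 normalised counts. Lmod1 had 208, 205 and 254 against 214, 344 and 295. Actg2 had 102, 120 and 135 against 115, 237 and 150, and the short Smtn entry 29.7, 5.34 and 3.93 against 27.7, 7.76 and 18.9. The log2 fold changes of Cnn1, Lmod1, Actg2 and the short Smtn entry were 0.33, 0.33, 0.44 and 0.79, with limma adjusted p from 0.706 to 0.736. Without replicate 2 they were 0.17, 0.18, 0.15 and 1.27. Without BF-D replicate 2, 0 of the 11 entries were called where 1.54% of all genes were (0.729% as rises and 0.811% as falls), their adjusted p ran from 0.130 to 0.891, and 5 of 11 had an unadjusted p under 0.05 (11.6% of all genes).

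Most members belong to families in which a non-muscle relative makes the same kind of protein, and the share of the member within its family is not moved by a single scaling factor per library. Over 8 such tests (4 shares in each comparison), an exact two-sided permutation test of 3 against 3 cannot go below p = 0.1, which adjusts to 0.2. Tagln made up 17.8 ± 3.51% of the transgelin level in BMSC-C and 5.47 ± 0.50% in BMSC-CT (SD, n = 3, exact permutation p = 0.1, adjusted p = 0.2), the rest being Tagln2. In BF-C its share was 67.6 ± 0.83% and in BF-D 72.8 ± 3.20% (SD, n = 3, exact permutation p = 0.1, adjusted p = 0.2). The groups did not overlap in either comparison. The transgelin level of the BF libraries was thus mostly Tagln and that of the BMSC libraries mostly Tagln2. Macrophage marker transcripts also differed between these libraries, and the part of cell mixture in the family shares was not tested.

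Tpm1 made up 10.6 ± 0.21% of the tropomyosin level in BMSC-C and 3.43 ± 1.21% in BMSC-CT (SD, n = 3, exact permutation p = 0.1, adjusted p = 0.2). Its share in BF-C was 13.4 ± 0.12% and in BF-D 14.3 ± 0.78% (SD, n = 3, exact permutation p = 0.2, adjusted p = 0.229). Tpm2 took 45.8%, 48.1% and 88.4% of the tropomyosin level in the 3 BMSC-CT libraries against 30.8% to 33.6% in BMSC-C. Tpm4, a non-muscle tropomyosin, took 27.4%, 23.8% and 1.47% against 42.3% to 46.7%. In both treated groups the library that stood apart had the highest Tpm2 share and the lowest Tpm4 share, the latter at 32.9% in BF-D replicate 2.

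**Figure D4:**
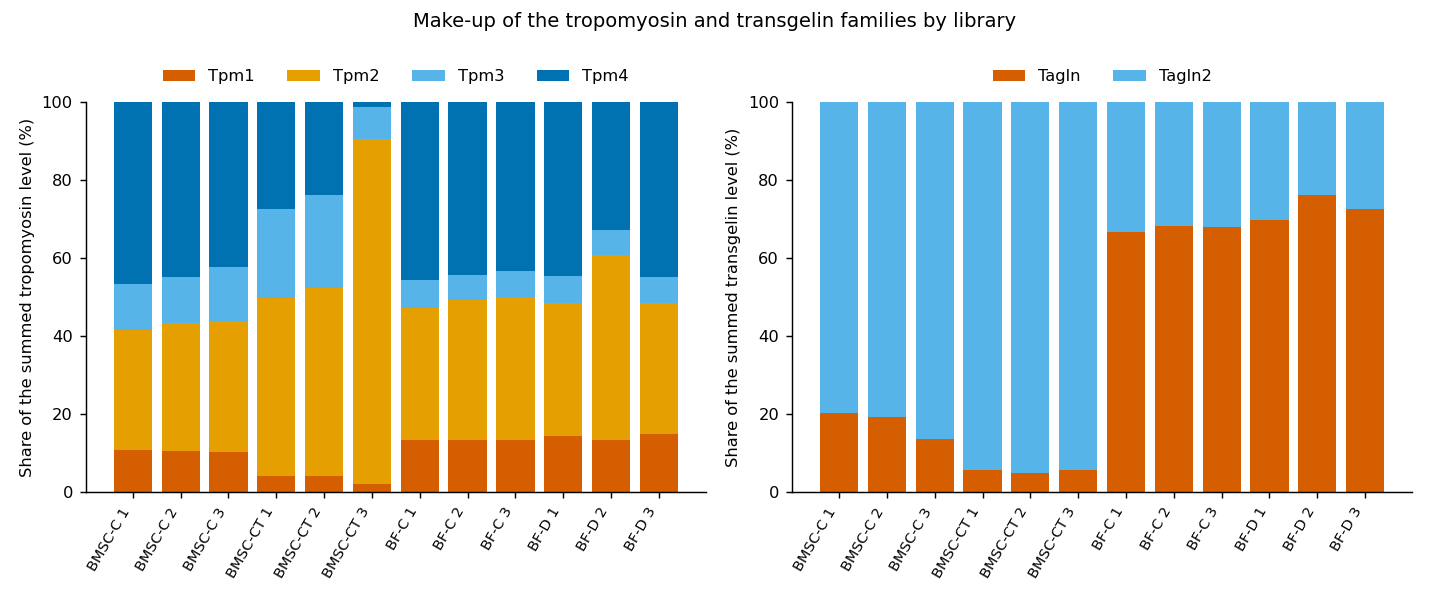
Share of each gene in the summed RPKM level of the tropomyosins (left, %) and of the transgelins (right, %) in every library. Tpm2 fills 88.4% of the tropomyosin bar in BMSC-CT replicate 3, and Tagln makes up 4.90% to 20.3% of the transgelin bar in the BMSC libraries and 66.6% to 76.1% in the BF libraries.

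Acta2 was a minor actin in the BMSC groups. It made up 0.828 ± 0.311% of the summed level of the actins in BMSC-C and 0.665 ± 0.470% in BMSC-CT (SD, n = 3, exact permutation p = 0.8, adjusted p = 0.8). The BMSC-CT libraries stood at 0.397%, 0.391% and 1.21%, and without replicate 3 their mean share of 0.394% lay below every control, of which the lowest was 0.472%. In BF-C the share was 11.9 ± 0.65% and in BF-D 15.2 ± 3.43% (SD, n = 3, exact permutation p = 0.2, adjusted p = 0.229). The rest was nearly all Actb and Actg1, the cytoplasmic actins, and Actc1 had no entry with reads in either table. Cnn1 made up 1.63 ± 0.15% of the calponin level in BMSC-C and 0.0485 ± 0.0670% in BMSC-CT (SD, n = 3, exact permutation p = 0.1, adjusted p = 0.2). In BF-C its share was 6.49 ± 0.42% and in BF-D 8.18 ± 1.48% (SD, n = 3, exact permutation p = 0.2, adjusted p = 0.229).

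Related genes were counted in the same fits, where no list had a call in BF-D with all 6 libraries. Without BF-D replicate 2, Itga8 (log2 fold change 0.50, limma adjusted p = 0.0031) and Mcam (0.54, 0.0353) of the smooth muscle list rose and Klf4 of the SRF list fell (-0.23, 0.0411). Among the markers Lyz2 (1.58, limma adjusted p = 0.0040), Cd68 (0.78, 0.0229) and Cd44 (0.26, 0.0044) then rose, and Cxcl12 (-0.36, 0.00064) and Pdgfra (-0.18, 0.0353) fell. The other lists had no call in that fit, where 0.729% of all genes rose and 0.811% fell. In the BMSC comparison 10.9% of all genes fell and 7.7% rose with all 6 libraries. Without BMSC-CT replicate 3 these shares were 23.5% and 19.5%, and the list counts here and below stand beside them. Of 12 other genes of the members' families tested in BMSC-CT, 2 fell and 0 rose, with a median log2 fold change of -0.30. Tpm4 fell by 2.89 on the log2 scale (SE 0.79, limma adjusted p = 0.0493), and Cnn2, the calponin of non-muscle cells, fell by 1.77 (SE 0.45, adjusted p = 0.0394). Smtnl2 had a log2 fold change of -1.85 (SE 0.57, limma adjusted p = 0.0655) and Myl12b one of 0.70 (SE 0.25, adjusted p = 0.0910). Without BMSC-CT replicate 3, 4 of the 12 fell and 1 rose, the latter being Myl12b (0.50, limma adjusted p = 0.0332).

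Of 11 genes for SRF, its cofactors and its partners, 3 fell and 0 rose in BMSC-CT, with a median of -0.51. Fhl2, a LIM-domain protein that binds SRF, had 845, 970 and 933 normalised counts in BMSC-C and 263, 330 and 378 in BMSC-CT, and fell by 1.51 on the log2 scale (SE 0.22, limma adjusted p = 0.0073). Myocd, the myocardin cofactor itself, was scarce at 26.0, 14.4 and 8.67 against 2.71, 2.11 and 0 normalised counts, and fell by 2.81 (SE 0.70, adjusted p = 0.0375). Klf4, known to repress smooth muscle genes, fell too, by 1.15 (SE 0.30, limma adjusted p = 0.0435). Tead1 had a log2 fold change of -2.73 (SE 0.78, adjusted p = 0.0539), and Srf one of -0.51 (SE 0.21, adjusted p = 0.125) with 1073 ± 128 against 757 ± 109 normalised counts (SD, n = 3). Without BMSC-CT replicate 3, 6 of the 11 fell and 1 rose, and Tead1 was among the falls (-1.80, limma adjusted p = 0.0005). The rise was that of Mkl1, an SRF cofactor gene (0.49, limma adjusted p = 0.0224). With all libraries Mkl1 had a log2 fold change of -0.30 (limma adjusted p = 0.744).

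Other smooth muscle and pericyte genes did not share 1 direction in BMSC-CT. Of 14 tested, 3 rose and 2 fell, with a median of -0.39. Itga8, the α8 integrin chain, had 1264, 803 and 812 normalised counts in BMSC-C and 7.23, 11.6 and 4.83 in BMSC-CT, a fall by 6.79 on the log2 scale (SE 0.40, limma adjusted p = 0.00039). Mcam (CD146), a pericyte adhesion molecule, fell by 4.84 (SE 0.77, adjusted p = 0.0098). Synpo2, which bundles actin, rose by 3.75 (SE 0.64, adjusted p = 0.0123) from 4.33 to 5.92 normalised counts to 30.6 to 131. Cspg4 (NG2) rose by 1.64 (SE 0.20, adjusted p = 0.0041), and Synm, an intermediate filament gene, rose by 1.77 (SE 0.43, adjusted p = 0.0360). Myh11, the smooth muscle myosin heavy chain, had a log2 fold change of -2.12 (SE 0.62, limma adjusted p = 0.0592). Without BMSC-CT replicate 3, 4 of the 14 fell and 5 rose, with Myh11 among the falls (-1.46, limma adjusted p = 0.0065).

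Among 12 genes of non-muscle myosin and its regulators, 2 fell and 0 rose in BMSC-CT, with a median of -0.54. These were Rock2, a protein kinase, at -2.74 (SE 0.42, limma adjusted p = 0.0086), and Ppp1cb, the catalytic subunit of myosin phosphatase, at -1.46 (SE 0.28, adjusted p = 0.0188). Of 16 stress fibre and focal adhesion genes 4 fell and 1 rose, with a median of -0.79. The falls, as log2 fold changes, were -1.47 for vinculin (Vcl, limma adjusted p = 0.0081), -1.59 for α-actinin 1 (Actn1, 0.0162), -1.09 for filamin A (Flna, 0.0275) and -1.43 for zyxin (Zyx, 0.0340). Vasp, which lengthens actin filaments, rose by 1.16 (adjusted p = 0.0225). The median of this list was -0.07 without BMSC-CT replicate 3, with 7 falls and 4 rises, and that of the myosin list was -0.07 too, with 5 falls and 2 rises. The rises of the myosin list were Myh10, a non-muscle myosin heavy chain (0.69, limma adjusted p = 0.0089), and Rhoa (0.42, 0.0491). With all libraries their log2 fold changes were 0.22 and 0.43, and neither was called.

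Marker lists of the cells that may be mixed in these cultures held calls in the BMSC comparison as well. Of 9 mesenchymal markers 3 fell, with log2 fold changes of -6.98 for Cxcl12, -3.14 for Pdgfra and -1.31 for Thy1, and Eng rose by 1.23. The limma adjusted p of these 4 ran from 0.00016 to 0.0153. Of 12 macrophage markers 4 rose and 1 fell, with Csf1r up by 2.12 (limma adjusted p = 0.0015), Cd68 by 1.81 (0.0118) and Lyz2 by 1.41 (0.0224), and Adgre1 at -1.50 (0.0334). Without BMSC-CT replicate 3, 6 macrophage markers rose and 5 fell, 1 mesenchymal marker rose and 4 fell, and 4 skeletal muscle markers fell. Skeletal muscle markers had 2 falls of 6 tested, endothelial markers 1 rise and 1 fall of 5, and cartilage markers 0 calls of 4. The endothelial and cartilage counts were the same without BMSC-CT replicate 3. The part of these cell types in the contractile result was not tested.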

How the data were processed

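Per the labels' protocols, an RNeasy kit and a NEBNext Ultra library kit were used. The aligner Bowtie 0.12.2 and the build mm8 stand in the submitters' processing notes; mm8 is a mouse build, whereas the tables carry rat Ensembl gene IDs, and so no coordinates of the tables are printed, and how reads were assigned to genes, with or without strand, is not given in the sources used here. The authors deposited 1 table per comparison (18616 and 19355 genes) of normalised counts, a signal scaled by library: 100% of the deposited values were whole multiples of 1 read's worth (tolerance 0.01), which gives back the reads. Log2 fold changes and p-values of the authors' deposited tables are named where used.

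The main test was limma 3.58.1 (R 4.3.3, empirical Bayes with a trend) on log2(normalised count + 1), per table, over 16818 and 17076 genes with a mean of at least 1, with Benjamini-Hochberg adjustment over all of them and calls at an adjusted p under 0.05. The design foresaw edgeR for raw counts; edgeR 4.0.16 and DESeq2 1.42.0 were run on the recovered reads as alternatives. On simulated data with the spread of the BMSC comparison, limma called 0 of 67 genes with a 2-fold, 20 of 67 with a 4-fold and 60 of 66 with a 16-fold difference, beside 6 false calls; for BF-D it called 35 of 67, 64 of 67 and 66 of 66, beside 13 false ones. In each simulation only 200 genes were changed, and no library was made to stand apart. In the real BMSC comparison 18.6% of genes were called, among them Flna at a log2 fold change of -1.09. The simulated shares therefore do not tell which fold changes could be called there. The members and gene lists were chosen with earlier results of these data known. All 10 members are named, and of each list up to 4 genes with the smallest adjusted p plus its defining markers. Srf, Mkl1, Synm, Myh11, Myh10, Rhoa, Zyx, Nt5e, Pdgfrb, Lepr and Vcam1 were added after their values were seen.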

Additional observations from a re-analysis of the deposited data

How the results depend on the processing

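Over all alternatives, the members kept direction and call in 205 values for BMSC-CT, gained a call in 8, lost one in 7 and turned direction in 10; for BF-D 228 kept both and 3 turned. In BMSC-CT the direction turned for Tpm2 with total-read scaling (-0.30), quantile scaling (-0.38) and quality weights (-0.52), with -0.56 to 0.48 as libraries were left out in turn. It turned for the long Smtn entry with the length trend removed against all 6 libraries (0.38; left-out range -0.418 to 0.00718), and for Lmod1 with quantile scaling (0.44) and that length removal (0.56; left-out range -0.531 to 0.0737). In BF-D it turned for Tpm2 with quality weights (-0.0508; left-out range -0.0897 to 0.361) and for Cald1 with the same length removal (0.0141). The cause was not tested. That length removal was chosen after seeing the data.

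Of the members, 5 fell in BMSC-CT, 10 with quality weights, whose estimate did not converge, and 3 to 8 as libraries were left out. Of all genes, 1295 rose in BMSC-CT, but 787 with total-read scaling, 2749 with DESeq2, 5667 with quality weights, 2320 with the length removal and 249 to 3269 with a library left out; 1839 fell, but 6690 with quality weights and 487 to 3935 with a library left out. In BF-D 1 gene rose and 1 fell. The rises became 2 with quantile scaling, 0 at a mean of at least 10, 37 with DESeq2, 0 with limma-voom, 72 with quality weights, 3 and 2 with length removed within groups and against all 6, and 0 to 125 with a library left out. The falls became 0, 35, 0, 53, 4, 2 and 0 to 139, in that order from the mean of at least 10. With the replicate number as a block, 1315 rose and 1688 fell in BMSC-CT, 5 of them members, and 0 and 0 in BF-D. Same-numbered treated and control libraries correlated at -0.0209 to 0.199 in the BMSC comparison, and the other pairs at -0.225 to 0.0891. In the BF comparison the values were -0.0029 to 0.0196 and -0.0348 to 0.0277. They are correlations of deviations from the group mean, which are tied to each other, so they cannot settle whether the numbers pair the libraries. Actg2 and Lmod1 in the BMSC table, Cnn1 after treatment and the short Smtn entry rest on few reads, which limits what can be said of them.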

Other observations

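Among 8784 other genes in both tables with a mean level above the median, the 5 whose pattern over the 12 libraries was most like that of Acta2 are given here, by the root mean square difference of centred log2(level + 0.1). They were Dpep1 (0.49), Pla2g2a (0.51), Ptn (0.52), Ass1 (0.57) and Hmgcs1 (0.61), none of them a contractile gene. Dpep1, a membrane dipeptidase, had mean levels of 5.12 and 1.35 RPKM in the BMSC-C and BMSC-CT groups, and of 40.6 and 47.3 RPKM in the BF-C and BF-D groups. Ass1, the urea cycle enzyme argininosuccinate synthase, had mean levels of 3.96, 0.753, 55.9 and 90.0 RPKM in the same order. Pla2g2a, a secreted phospholipase, differed from Acta2 in BMSC-CT, with mean levels of 24.0 RPKM in BMSC-C and 21.4 in BMSC-CT. Of the members, Tagln ranked 21 and Myl9 27 by this measure, the long Smtn entry 137, Cald1 188, Cnn1 204, Tpm1 238 and Tpm2 2035. The 12 libraries come from 2 separately normalised tables, and the likeness is a description without a test.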
